A study of Mus musculus with 20 samples.

Results

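The comparison described here set the 3 control libraries of the Foxk1 knockdown experiment against the 3 control libraries of the Foxk1 overexpression experiment, both made from 3T3-L1 adipocytes and both without any change to Foxk1 or Foxk2. The 6 libraries were taken by name from a deposited table of 20 RNA-seq libraries, in which each of Foxk1 and Foxk2 (forkhead transcription factors) was knocked down or overexpressed beside a control of its own. Cells of the first group, the knockdown controls, carried a scrambled shRNA, a hairpin with no intended target. Cells of the second group, the overexpression controls, carried an empty expression vector. 3T3-L1 is an embryonic fibroblast line of Swiss mouse origin that turns into fat cells when stimulated. All groups were differentiated with insulin at 5 µg/ml, troglitazone at 10 µM, dexamethasone at 1 µM and isobutyl methylxanthine at 0.5 mM, received insulin alone from day 4 and stood in growth medium from day 6. The labels name neither the vector nor the way it was delivered or selected, nor the day of RNA collection, and they do not say whether the 3 replicates of a group were separate cultures. P-values therefore measure the spread between libraries within groups, pooled over all 20 libraries, which may be technical. The kind of construct, the culture and any batch that goes with it cannot be told apart.

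Dexamethasone activates the glucocorticoid receptor, the methylxanthine raises cyclic AMP, insulin promotes glucose uptake and fat synthesis, and troglitazone activates PPARγ, the nuclear receptor that drives fat cell identity. During conversion, fibroblast genes for collagens and other matrix proteins are turned down while genes for lipid storage, adipokines and mitochondria are turned up. A mature adipocyte stores triglyceride under insulin and releases fatty acids when β-adrenergic receptors raise cyclic AMP.

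Levels are given as RPKM, reads scaled by exon length and by library depth, as deposited. Differences are knockdown controls minus overexpression controls on the log2(RPKM + 0.5) scale, which understates the change of weakly expressed genes, with the standard error (SE). A gene was called when limma's adjusted p (Benjamini-Hochberg over 15981 genes) was under 0.05. Depth recovered from the table was 19502068 to 20772823 reads in the knockdown controls and 17328261 to 18769883 in the overexpression controls. These ranges did not overlap, and neither did the mitochondrial share of reads, 5.49% to 6.05% against 4.91% to 5.23% (both p = 0.1, exact two-sided permutation test, the smallest p that 3 against 3 allows).

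Both groups carried the profile of adipocytes. The 21 adipocyte markers summed to 14760 to 15412 RPKM in the knockdown controls and 16466 to 16788 in the overexpression controls, and none of them was at 0. Fibroblast and preadipocyte markers summed to 2862 to 3086 RPKM against 1802 to 2071, with Dpp4 at 0 in every library. Macrophage markers summed to at most 7.30 RPKM, and Adgre1, Itgam and Ptprc, which define those cells, were at 0 throughout. The highest sums were 1.68 RPKM for endothelial, 15.02 for skeletal muscle (mainly Des, with Myod1 and Myog at 0) and 2.78 for epithelial markers. In such bulk libraries, fewer cells of a type and less RNA per cell cannot be told apart.

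Foxk1 itself measured 8.80, 8.18 and 7.98 RPKM in the knockdown controls and 7.11, 7.48 and 8.04 in the overexpression controls, overlapping ranges (difference 0.13, SE 0.055, adjusted p = 0.0615). It passed the threshold when the third library of either group was left out, in the voom fit and when mitochondrial genes were left out. Foxk2 measured 10.9, 10.8 and 11.3 RPKM against 11.4, 11.5 and 10.9 (difference -0.03, SE 0.04, adjusted p = 0.526). It was called lower under median-ratio scaling and with the length and GC trend removed.

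The 2 control groups differed at 7154 of 15981 genes tested, or 44.8%. Of these, 4473 were higher in the knockdown controls (28.0% of genes tested) and 2681 were lower (16.8%). Most differences were small, with a median absolute log2 difference of 0.33 among called genes. At 2-fold or more, 209 genes were higher (1.31%) and 215 lower (1.35%). The share of called genes that were higher was 62.5% on the deposited scale, but 46.2% after median-ratio scaling, 51.2% after quantile normalization and 49.3% with the length and GC trend removed, so no lean of the transcriptome to either side is read from these counts. Median-ratio scaling moved the median of all genes from 0.04 to -0.01.

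**Figure D1:**
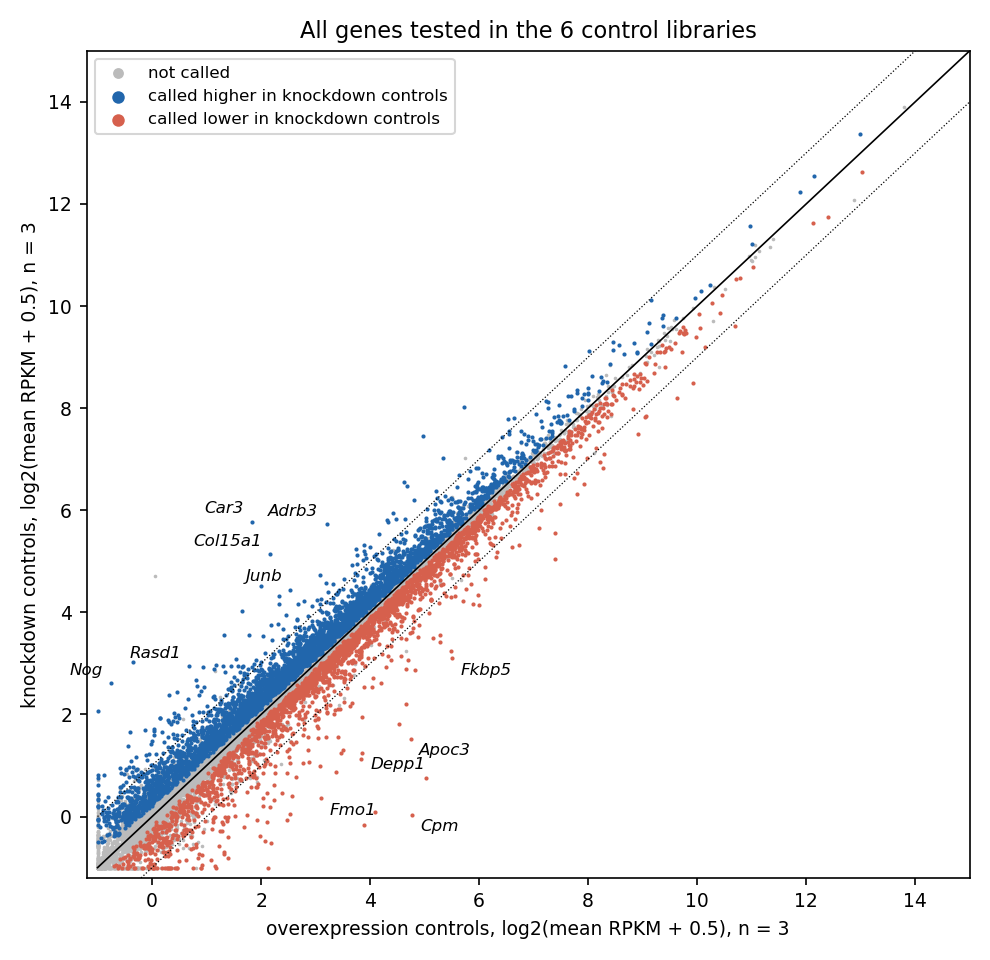
Mean level of each tested gene in the overexpression controls (horizontal) and the knockdown controls (vertical), both as log2(mean RPKM + 0.5) over 3 libraries, with called genes coloured and dotted lines at a 2-fold difference. Most of the 7154 called genes lie between the dotted lines, and a few, with Cpm below and Car3 and Nog above, lie far outside.

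Across the 20 libraries, the leading principal component (79.5% of variance) separated the Foxk1 from the Foxk2 experiments. The second, with 10.9%, placed the knockdown controls at 15.6 to 18.1 and the overexpression controls at -15.3 to -7.64. On the same axis the Foxk1 knockdown libraries averaged 43.3 and the libraries labelled Foxk1 overexpression averaged -53.1. Within groups the libraries were close, with a median SD of 0.078 log2 units in the knockdown controls and 0.082 in the overexpression controls. The Foxk2 groups had 0.039 to 0.053, so the pooled spread may understate that of the Foxk1 controls. The fit of the 6 control libraries alone called 5619 genes.

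**Figure D2:**
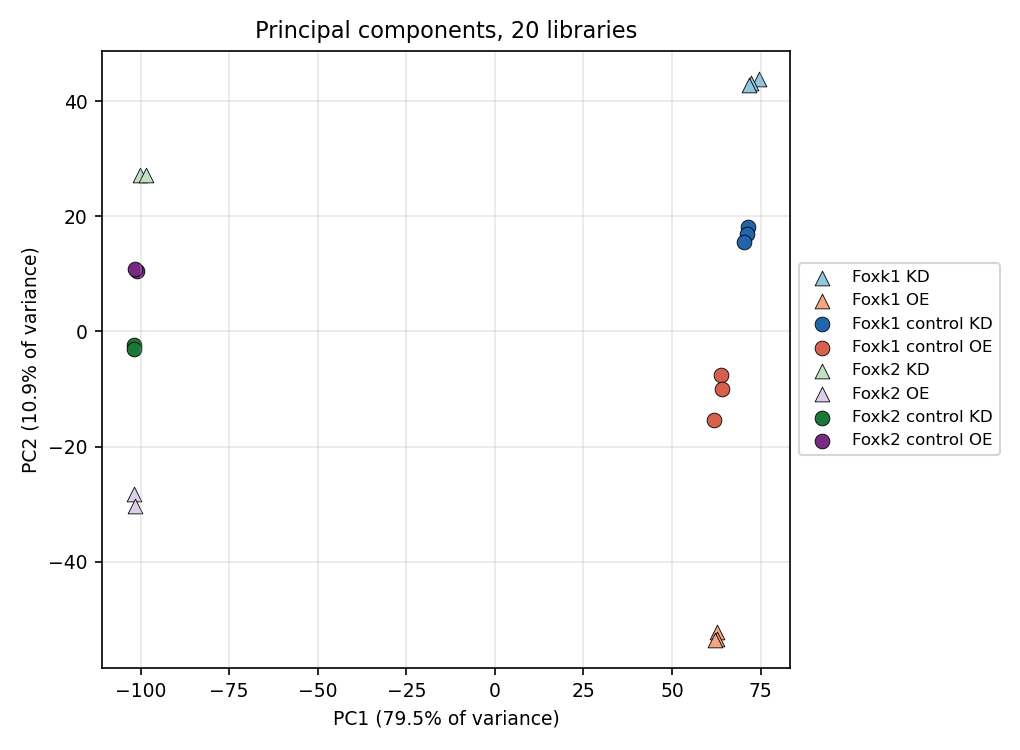
First (horizontal) and second (vertical) principal components of log2(RPKM + 0.5) in the 20 libraries, circles for controls and triangles for manipulated cells. The 2 Foxk1 control groups lie near each other on the first component and stand apart on the second, at means of 16.9 and -11.0.

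Cpm and several other genes were far lower in the knockdown controls. Cpm, which encodes the membrane enzyme carboxypeptidase M (chr10:117629500-117687352, GRCm38, as are all gene positions here), measured 0.468, 0.516 and 0.596 RPKM in the knockdown controls and 26.1, 28.7 and 25.6 in the overexpression controls. The difference was -4.73 (SE 0.09, adjusted p = 1.9e-14). Separation of the groups was part of how the genes with the largest differences were chosen. Apoc3, an apolipoprotein that restrains lipoprotein lipase, measured 1.80, 2.88 and 2.47 RPKM against 22.98, 30.1 and 26.0. This was a difference of -3.23 (SE 0.17, adjusted p = 5.21e-10).

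Depp1, a target of FoxO factors, measured 1.99, 1.70 and 1.95 RPKM against 15.4, 11.8 and 14.4 (difference -2.59, adjusted p = 3.44e-10). Map7d2, a microtubule-associated protein, measured 1.33, 1.34 and 1.32 RPKM against 8.82, 11.4 and 9.18 (difference -2.48, adjusted p = 6.26e-12). The groups did not overlap in either gene, but this was a condition of their choice and held in 49.4% of all genes tested.

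Several neighbouring families were low together in the knockdown controls; the family lists below were made after values of these data had been seen and are a description. All 5 flavin monooxygenases tested, enzymes that oxidize nitrogen and sulfur in foreign and cellular compounds, were lower, with a median difference of -2.10. Fmo1 measured 0.710, 0.805 and 0.842 RPKM against 7.83, 8.61 and 7.79, and Fmo2 0.0858, 0.064 and 0.0536 RPKM against 2.08, 2.07 and 2.21. Of 8 Ifi200 genes tested, a family of nuclear and DNA-binding proteins often induced by interferon, 6 were lower and none higher. Ifi207 led them at 1.71, 1.43 and 1.90 RPKM against 14.1, 13.9 and 13.4 (difference -2.72, adjusted p = 3.66e-12).

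Of 5 eosinophil-associated ribonuclease genes tested, 4 were lower. Ear2 measured 0.870, 0.713 and 1.95 RPKM against 30.9, 36.5 and 28.5 (difference -4.34), Ear-ps2 differed by -4.05 and Ear10 by -2.54. These genes share much of their sequence (60.5% of the 31-base words of Ear2 occur in another gene), so which copy the reads came from is uncertain. The same holds for the U1 RNA gene Rnu1a1 (100% shared, difference -2.71) and for Ctla2a, a cathepsin inhibitor (39.4% shared, 3.30, 4.97 and 4.09 RPKM against 23.9, 27.2 and 22.7).

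**Figure D3:**
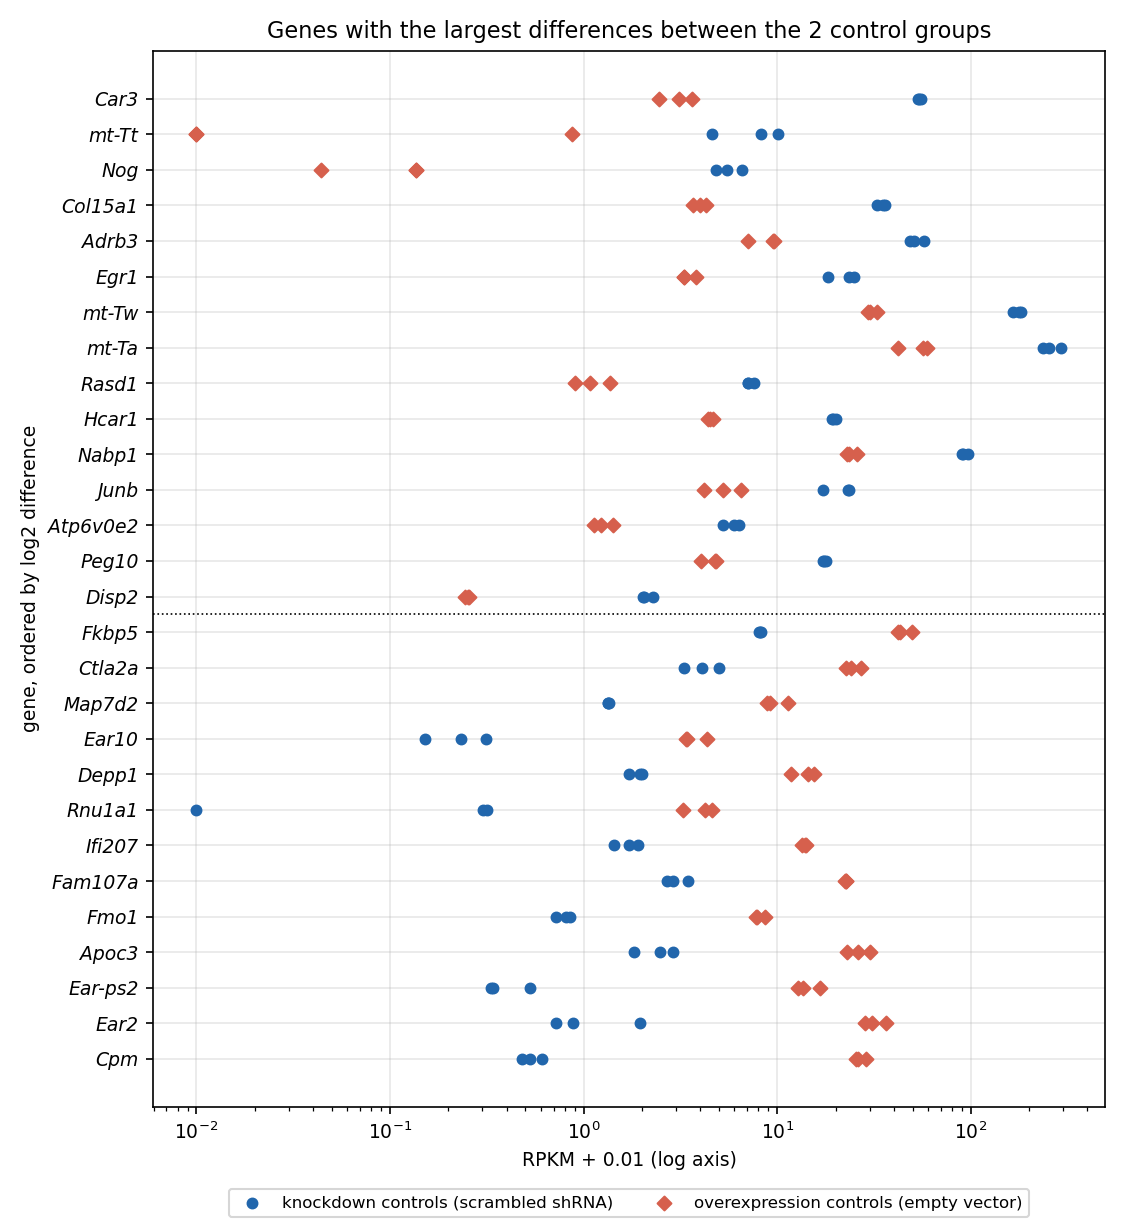
RPKM plus 0.01 on a log axis for the 15 genes with the largest rise and 13 of the 15 with the largest fall, 1 point per library, circles for the 3 knockdown controls and diamonds for the 3 overexpression controls. The groups do not overlap in any of these genes, and separation of the groups was part of how they were chosen.

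At the other end stood Car3, a carbonic anhydrase abundant in mature fat and muscle (chr3). It measured 55.3, 53.3 and 54.2 RPKM in the knockdown controls and 3.09, 2.44 and 3.61 in the overexpression controls (difference 3.96, SE 0.095, adjusted p = 1.7e-13). Nog, which encodes the secreted BMP antagonist noggin, measured 6.59, 5.51 and 4.82 RPKM against 0.126, 0.034 and 0.126 (difference 3.36, SE 0.12, adjusted p = 1.12e-11). Col15a1, a basement membrane collagen, measured 36.0, 35.1 and 32.8 RPKM against 3.66, 4.00 and 4.27 (difference 2.97, SE 0.073, adjusted p = 2.2e-13). No library of one group reached the levels of the other in these 3 genes, as in 49.4% of all genes tested.

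Several cell-surface receptors of adipocytes were among the higher genes. In a list of 19 tested, drawn up after values had been seen, 11 were higher and 5 lower, with a median of 0.53. The shares of all genes were 28.0% higher and 16.8% lower, and the list count is a description. Adrb3, the β3-adrenergic receptor through which catecholamines start lipolysis, measured 57.5, 51.1 and 48.6 RPKM against 9.57, 7.04 and 9.47 (difference 2.53, adjusted p = 2.49e-10). Hcar1, the lactate receptor that restrains lipolysis, measured 20.1, 19.5 and 19.2 RPKM against 4.38, 4.50 and 4.62 (difference 2.01, adjusted p = 2.21e-14). Ffar2, a receptor for short-chain fatty acids, measured 24.7, 27.1 and 26.1 RPKM against 7.87, 7.47 and 8.63 (difference 1.64, adjusted p = 1.41e-12). Hcar2, the niacin receptor, was higher by 1.51.

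The lower receptors included Mc5r, a melanocortin receptor (11.7, 10.6 and 10.7 RPKM against 27.0, 30.6 and 29.1, difference -1.35), Mc2r, Adora1 and Npr1. Mc2r was not called without the second knockdown control or the first overexpression control. Nabp1, a single-strand DNA-binding protein, was higher at 90.1, 91.3 and 97.1 RPKM against 25.7, 23.4 and 23.05 (difference 1.93, adjusted p = 3.2e-13), and the imprinted gene Peg10 at 17.8, 17.4 and 17.3 against 4.81, 4.78 and 4.02 (difference 1.84). Disp2 and Atp6v0e2 completed the higher protein-coding genes at differences of 1.82 and 1.86.

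Most of the listed genes induced through the glucocorticoid receptor were lower in the knockdown controls. Of 24 tested on a list made after values had been seen, 19 were lower and 2 higher, beside 16.8% and 28.0% of all genes. The median was -0.92 beside 0.04 for all genes. The counts were 19 lower and 2 or 3 higher under each scaling tried. Rescaling cannot test a list made from these data, so the counts are a description. Fkbp5, the chaperone that limits hormone binding by the receptor (chr17), measured 8.01, 8.21 and 8.09 RPKM against 42.1, 49.9 and 42.9 (difference -2.40, SE 0.054, adjusted p = 8.85e-14). Tsc22d3, also called Gilz, an anti-inflammatory mediator of glucocorticoids, measured 16.7, 18.2 and 16.7 RPKM against 62.4, 67.2 and 61.2 (difference -1.86, adjusted p = 2.86e-12). All libraries of one group lay below all of the other in both genes, but 49.4% of all genes tested had ranges apart. For Fkbp5 this separation was also a condition of its choice.

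The stress gene Fam107a measured 2.67, 2.88 and 3.43 RPKM in the knockdown controls and 22.5, 22.6 and 22.7 in the overexpression controls (difference -2.73). The metallothionein Mt1 measured 735, 804 and 796 RPKM against 1604, 1725 and 1632 (difference -1.09), and Pdk4, the kinase that shuts down pyruvate dehydrogenase, 7.46, 8.35 and 7.97 RPKM against 20.6, 20.3 and 19.9 (difference -1.30). Per1, Cebpd, Nfkbia and Lcn2 were lower by 0.97 to 1.33. The 2 members that were higher were Rasd1, a small GTPase first found as dexamethasone-inducible, and Pck1, which makes glycerol backbone for triglyceride. Rasd1 measured 7.05, 7.58 and 7.03 RPKM against 0.894, 1.07 and 1.36 (difference 2.27, adjusted p = 1.44e-10), against the direction of the others.

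Sgk1, a kinase of the same list, is shown for its promoter; it was chosen after its values were seen. It measured 6.13, 6.95 and 5.39 RPKM in the knockdown controls and 8.24, 9.56 and 8.06 in the overexpression controls (difference -0.46, SE 0.087, adjusted p = 0.000481). The full palindromic receptor element, AGAACA and TGTTCT with any 3 bases between, searched on both strands of the 250 bases before each gene's start, was found for 3 of 27025 genes in the RefSeq promoter table (0.0111%), and Sgk1 was the 1 match among the 20 list genes in that table. The match begins 189 bases before 1 of the annotated starts of Sgk1. The whole 250-base window, plus strand of chr10:21993640-21993889 (GRCm38.p6), is shown with the match in capitals. A match is a description of the letters and not evidence of binding.
Sgk1: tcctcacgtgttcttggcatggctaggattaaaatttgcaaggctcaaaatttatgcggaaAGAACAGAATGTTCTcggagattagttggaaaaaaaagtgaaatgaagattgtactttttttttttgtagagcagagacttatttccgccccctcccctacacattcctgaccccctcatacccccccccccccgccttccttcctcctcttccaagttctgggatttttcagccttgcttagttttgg

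Immediate early genes, transcription factors switched on within minutes by growth factors and stress, were higher in part. Of 20 tested, 9 were higher and 2 lower, with a median of 0.22; 4 were lower without the first knockdown control and with the length and GC trend removed. Egr1 measured 23.4, 25.0 and 18.4 RPKM against 3.81, 3.31 and 3.30 (difference 2.51, SE 0.088, adjusted p = 7.02e-12). Junb measured 23.6, 23.1 and 17.2 RPKM against 6.49, 4.19 and 5.26 (difference 1.91, SE 0.13, adjusted p = 8.51e-09). The third knockdown control was the lowest of its group in both genes but stayed above every overexpression control, as their choice required.

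Fos and Ier2 followed the same pattern, with Fos at 3.89, 3.60 and 2.43 RPKM against 0.703, 0.613 and 0.498 and Ier2 at 42.1, 42.5 and 34.0 RPKM against 12.5, 15.1 and 15.2. The 2 lower members were Atf3, a stress-induced repressor (4.05, 4.00 and 4.09 RPKM against 8.64, 9.86 and 8.98, difference -1.09), and Fosl2 (difference -0.31).

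Cholesterol synthesis was higher in the knockdown controls nearly throughout. Of 24 genes tested, 22 were higher and 1, Cyp51, was lower, with a median of 0.62; between 20 and 22 were higher under each scaling. Tm7sf2, a sterol reductase, measured 18.9, 18.0 and 17.4 RPKM against 6.32, 6.77 and 6.09 (difference 1.43, SE 0.065, adjusted p = 1.36e-10). Dhcr7, which makes cholesterol in the last step of one branch, measured 23.5, 23.5 and 22.1 RPKM against 9.32, 10.0 and 9.11 (difference 1.24, adjusted p = 4.11e-10). Hsd17b7 and the sterol carrier Stard4 were higher by 1.09 and 1.05. Cyp51, the demethylase of lanosterol, measured 42.4, 43.8 and 44.3 RPKM against 47.8, 61.4 and 48.1 (difference -0.26, adjusted p = 0.0128), and it was not called without the second overexpression control or in the fit of the 6 control libraries alone (adjusted p = 0.0535 and 0.126).

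Promoters are shown for 3 further genes of the pathway, picked after their values were seen from the 17 list genes that the RefSeq table holds. Hmgcs1, an early enzyme of the pathway, measured 180, 194 and 189 RPKM against 104, 119 and 104. Insig1, which retains the sterol sensor in the endoplasmic reticulum, measured 301, 311 and 294 RPKM against 184, 212 and 199. Idi1, an isomerase of the pathway, measured 35.5, 38.8 and 30.5 RPKM against 22.3, 28.4 and 21.7. The groups did not overlap in any of the 3, as in 49.4% of all genes tested. Sterol-regulated promoters are known to pair a sterol element, bound by SREBP, with CCAAT boxes, bound by NF-Y. The 250 bases before the start were searched on both strands for TCACNCCAC and for CCAAT, which reads ATTGG on the other strand.

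Of the 17 list genes in the promoter table, 16 held CCAAT (94.1%, beside 37.5% of all 27025 genes) and 1, Hmgcs1, held TCACNCCAC (5.88%, beside 1.23%). In the sequences here, all plus strand of GRCm38.p6, both motifs are in capitals. Hmgcs1 at chr13:119690101-119690350 has 3 CCAAT boxes and the sterol element, Idi1 at chr13:8885356-8885605 has 2 CCAAT boxes and Insig1 at chr5:28071162-28071411 has 1.
Hmgcs1: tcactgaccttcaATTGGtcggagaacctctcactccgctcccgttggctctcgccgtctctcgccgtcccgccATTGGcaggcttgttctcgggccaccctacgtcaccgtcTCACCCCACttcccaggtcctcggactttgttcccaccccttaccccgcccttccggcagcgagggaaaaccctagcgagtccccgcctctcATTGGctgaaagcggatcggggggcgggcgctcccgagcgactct
Idi1: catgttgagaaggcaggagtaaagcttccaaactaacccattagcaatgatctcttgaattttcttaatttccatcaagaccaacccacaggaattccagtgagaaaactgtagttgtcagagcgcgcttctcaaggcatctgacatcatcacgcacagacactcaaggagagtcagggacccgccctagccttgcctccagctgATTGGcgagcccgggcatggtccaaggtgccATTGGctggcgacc
Insig1: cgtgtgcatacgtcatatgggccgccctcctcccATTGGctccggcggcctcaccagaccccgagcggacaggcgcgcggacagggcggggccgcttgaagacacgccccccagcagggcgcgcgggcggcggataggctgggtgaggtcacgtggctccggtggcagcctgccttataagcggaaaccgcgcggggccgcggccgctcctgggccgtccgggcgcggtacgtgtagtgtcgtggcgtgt

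Genes of the extracellular matrix were higher in the knockdown controls. Of 18 collagens tested, 16 were higher and 1, Col11a1, was lower, with a median of 0.72. Col3a1, a fibrillar collagen, measured 454, 451 and 446 RPKM against 204, 176 and 194 (difference 1.23, SE 0.047, adjusted p = 1.89e-11). Col6a2, part of the microfibrils around fat cells, measured 241, 220 and 211 RPKM against 99.9, 91.9 and 106 (difference 1.17, adjusted p = 2.9e-10). Col11a1 measured 4.77, 4.92 and 4.64 RPKM against 5.66, 5.27 and 5.61 (difference -0.19). It was not called without the third knockdown control or without the first or the third overexpression control (adjusted p = 0.0617, 0.0616 and 0.0554).

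Proteoglycans and matricellular proteins were higher in 20 of 25 and lower in 3, Ogn, Omd and Mfap5. Omd was not called without the second knockdown control or the first overexpression control. Lum, a collagen-binding proteoglycan, measured 51.7, 58.1 and 58.9 RPKM against 27.4, 20.4 and 25.4 (difference 1.20). Mfap4 was higher by 1.78 and Ccn1, a secreted regulator of adhesion, by 1.15, whereas Ogn, another small proteoglycan, measured 42.3, 45.5 and 41.5 RPKM against 79.0, 67.1 and 69.4 (difference -0.73). Basement membrane and integrin genes were higher in 13 of 19 and lower in 3, led by the nidogen Nid2 (difference 1.39). Matrix proteases, inhibitors and cross-linkers were higher in 17 of 26 and lower in 5. Mmp11 led these at 62.4, 59.6 and 62.6 RPKM against 20.1, 19.99 and 22.3 (difference 1.54), while the cross-linking enzyme Lox was lower by 0.23.

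The list of fibroblast and preadipocyte markers, which overlaps the matrix lists, was higher in 17 of 23 and lower in 4, with a median of 0.50. Pdgfrb measured 21.2, 20.3 and 18.8 RPKM against 10.7, 9.24 and 10.2 (difference 0.97). The 4 lower markers included Ly6a, which encodes the progenitor antigen Sca-1, at 14.5, 15.6 and 17.7 RPKM against 32.1, 24.4 and 30.6 (difference -0.84), and Pdgfra, whose ranges overlapped and which was not called in 4 of the 6 fits without 1 control library. Mgp and S100a4 were the others. Contractile genes were higher in 12 of 19 and lower in 1, with 2 lower without the first or second knockdown control. The part of a different share of undifferentiated cells in the matrix results was not tested.

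Mitotic genes were higher in 23 of 25 and lower in none, with a median of 0.54, all from low levels; filters on a mean RPKM of 1 or on RPKM of 2 in 2 libraries left 13 and 10 higher. Cdk1, the kinase that starts mitosis, measured 4.22, 5.27 and 4.51 RPKM against 2.60, 2.85 and 2.13 (difference 0.77, adjusted p = 6.57e-06). DNA replication genes were higher in 8 of 26, near the share of all genes, and lower in 1; the 8 became 4 in the fit of the 6 control libraries alone. The cell cycle inhibitor Cdkn1a was lower, at 64.2, 63.8 and 59.1 RPKM against 98.5, 108 and 102 (difference -0.72, adjusted p = 1.8e-08). The cyclins parted, with Ccnd2 higher by 0.68 and Ccnd1 lower by 0.32.

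**Figure D4:**
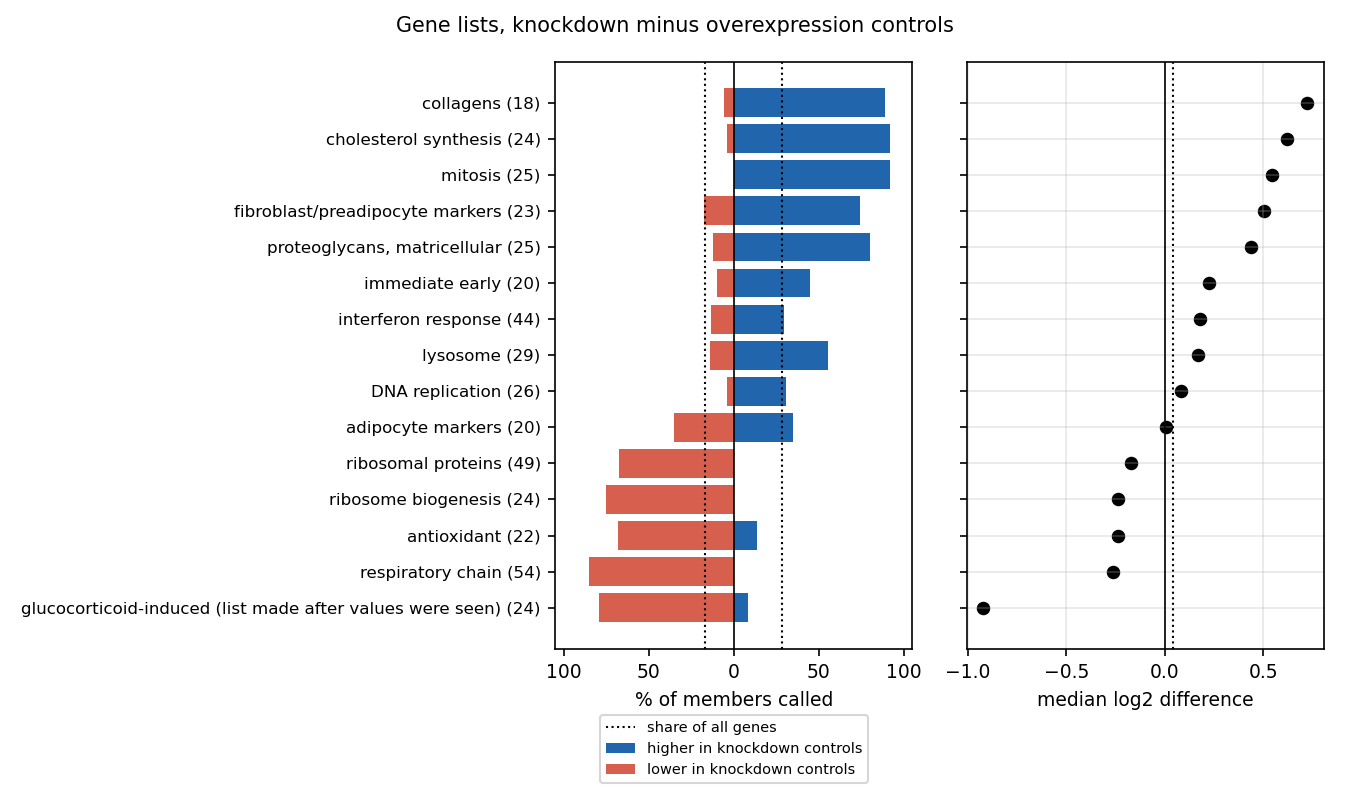
Left, percent of the tested members of each gene list (number in brackets) called higher to the right or lower to the left in the knockdown controls, with dotted lines at the shares of all genes, 28.0% and 16.8%. Right, the median log2 difference of each list, with a dotted line at 0.04 for all genes. Collagens, cholesterol synthesis and mitosis lie at the top, and respiratory chain and glucocorticoid-induced genes at the bottom.

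Fat cell genes moved both ways. Of 20 adipocyte markers tested, 7 were higher and 7 lower, with a median of 0.01, which turned to -0.08 under median-ratio scaling or with the length and GC trend removed. Adipoq, the hormone adiponectin, measured 2937, 3042 and 3152 RPKM against 2085, 1962 and 1956 (difference 0.60, adjusted p = 1.68e-08), and Cfd, the protease adipsin, 3049, 3178 and 3282 RPKM against 4575, 4394 and 4478 (difference -0.50, adjusted p = 4.05e-08). Pparg, the master regulator, measured 118, 119 and 122 RPKM against 120, 117 and 116 (difference 0.02, SE 0.026, adjusted p = 0.56).

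Pnpla2, the lipase of the first step of lipolysis, measured 627, 565 and 577 RPKM against 1125, 1087 and 1173 (difference -0.94, adjusted p = 1.71e-10). Lipe, the next lipase, was lower by 0.15, and was not called under quantile normalization. Thrsp, a promoter of lipogenesis, measured 220, 230 and 232 RPKM against 498, 564 and 514 (difference -1.21, adjusted p = 1.6e-10). Fatty acid synthesis genes were higher in 9 of 19 and lower in 9. The desaturase Fads2 was higher, at 188, 184 and 169 RPKM against 86.0, 96.7 and 94.8, whereas the elongase Elovl3, at 0, 0.137 and 0.0335 RPKM against 1.43, 2.05 and 1.39, was lower.

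Elovl3 and Cidea, both known from brown fat, were lower while other members of the thermogenic list were higher (5 higher and 5 lower of 11). Cidea measured 0.331, 0.220 and 0.258 RPKM against 3.02, 3.52 and 3.84 (difference -2.36, adjusted p = 2.35e-10). Cox7a1 was higher, at 16.4, 25.4 and 18.2 RPKM against 10.8, 10.5 and 8.46 (difference 0.96). Secreted products were lower in 10 of 24 and higher in 7. The acute-phase protein Hp measured 294, 289 and 297 RPKM against 778, 795 and 800 (difference -1.43), and Nampt, which makes NAD, 77.2, 79.4 and 80.8 RPKM against 214, 241 and 212 (difference -1.48).

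Apolipoprotein genes, a list drawn up after values had been seen, were higher in 4 and lower in 5 of 9. Apod, a lipocalin, measured 31.2, 33.3 and 32.6 RPKM against 166, 171 and 163 (difference -2.35). Apoe, a ligand for lipoprotein uptake, measured 56.0, 53.8 and 51.7 RPKM against 17.1, 18.6 and 23.1 (difference 1.44). Apoa4 was higher (difference 1.80), although 69.8% of its exon bases overlap another gene. Among carbonic anhydrases, a list also drawn up after values had been seen, 5 were higher and 2 lower of 10. The mitochondrial form Car5b was the main lower one, at 64.6, 70.8 and 73.1 RPKM against 179, 190 and 166 (difference -1.35).

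Nuclear-encoded respiratory chain genes were lower in 46 of 54 and higher in none, with a median of -0.26. Quantile normalization gave 40 lower and 2 higher. Ndufb9, a subunit of complex I, measured 366, 365 and 377 RPKM against 525, 556 and 539 (difference -0.55, SE 0.035, adjusted p = 6.44e-09). Of 15 transcripts of the mitochondrial genome, 4 were higher, near the share of all genes, and none lower. Of these, mt-Cytb, a complex III subunit, measured 5691, 6062 and 6114 RPKM against 4780, 4351 and 4478 (difference 0.39). It was not called in the fit of the 6 control libraries alone, under quantile normalization or with no filter (adjusted p = 0.0602, 0.0971 and 0.0584), and the 4 higher transcripts became 1 in the first of these and 2 in the last. The list of 21 mitochondrial tRNAs was made after values had been seen. Of its members, 11 were higher and none lower, with 1 lower without the third knockdown control or the first overexpression control. They included mt-Ta (237, 253 and 294 RPKM against 56.4, 41.8 and 59.5), mt-Tw (182, 166 and 178 RPKM against 29.4, 32.7 and 30.2) and mt-Tt, which rested on 14, 6 and 11 reads against 0, 1 and 0.

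Ribosomal protein genes were lower in 33 of 49 and higher in none, with a median of -0.17, but in 18, with 1 higher, after quantile normalization. Ribosome biogenesis genes were lower in 18 of 24 and higher in none. Pes1, needed to mature the large subunit, measured 26.2, 27.0 and 26.4 RPKM against 34.8, 35.0 and 35.6 (difference -0.40, adjusted p = 7.2e-09). Antioxidant genes were lower in 15 of 22 and higher in 3. The peroxidase Gpx1 measured 108, 115 and 117 RPKM against 321, 292 and 309 (difference -1.43, adjusted p = 1.41e-12), and Hmox1, which breaks down heme, was higher at 174, 182 and 169 RPKM against 112, 130 and 114 (difference 0.56).

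Genes of glucose use, the process Foxk1 and Foxk2 are known to promote, were higher in 6 of 18 and lower in 4 for the steps of glycolysis. These shares were near the 28.0% and 16.8% of all genes, and the median was 0.05 beside 0.04 for all genes. The 4 became 2 without the third knockdown control or the second overexpression control. Slc2a4, the insulin-regulated glucose transporter, measured 49.98, 51.3 and 48.9 RPKM against 61.6, 73.3 and 62.8 (difference -0.39, adjusted p = 6.42e-05). Genes around pyruvate dehydrogenase were lower in 8 of 14 and higher in 3. Among the kinases that inhibit it, Pdk4 (difference -1.30) and Pdk2 (-0.50) were lower while Pdk1 (0.35) and Pdk3 (0.37) were higher. In insulin signalling, 10 of 24 were higher and 8 lower, beside 28.0% and 16.8% of all genes, or 13 lower under median-ratio scaling. Irs1, the receptor's main substrate in fat cells, measured 24.0, 24.1 and 25.0 RPKM against 13.9, 11.8 and 12.1 (difference 0.93, adjusted p = 2.63e-09).

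Lists that bear on the hairpin construct itself are given by their counts. Of 13 genes of the RNA interference machinery, 2 were higher and 1 lower, beside 28.0% and 16.8% of all genes. None of the 13 was lower when any 1 control library was left out. Of 44 interferon-response genes, which double-stranded RNA can induce, 13 were higher and 6 lower, shares near those of all genes. The interferon gene Ifit3 measured 8.14, 2.67 and 3.42 RPKM against 1.34, 0.893 and 1.68, so that the first knockdown control was the highest, and 61.8% of its sequence words occur in another gene. It was not called in the fit of the 6 control libraries alone (adjusted p = 0.0549). Nucleic acid sensors were higher in 5 of 16 and lower in 2, again near the shares of all genes. The 5 became 2 without the first knockdown control or in the fit of the 6 control libraries alone, and 3 without the second knockdown control or the first or the third overexpression control.

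The same kind of comparison in the Foxk2 experiments, with 2 libraries a side and none shared, called 3024 genes (18.9%), of which 31 were 2-fold higher (0.194%) and 21 were 2-fold lower (0.131%). A difference between the 2 control differences was called for 5636 genes (35.3%). It was called for 370 of the 424 genes that were called and differed 2-fold in the Foxk1 set. Those 424 were chosen on the Foxk1-set values that enter this contrast, so their count is a description. The log2 differences of the 2 sets were weakly and negatively correlated across 15981 genes (Pearson -0.06, Spearman -0.10), genes not being independent replicates. Genes called in both numbered 1903, or 26.6% of those called in the Foxk1 set and 62.9% of those in the Foxk2 set, with 776 in the same direction and 1127 in the opposite one.

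**Figure D5:**
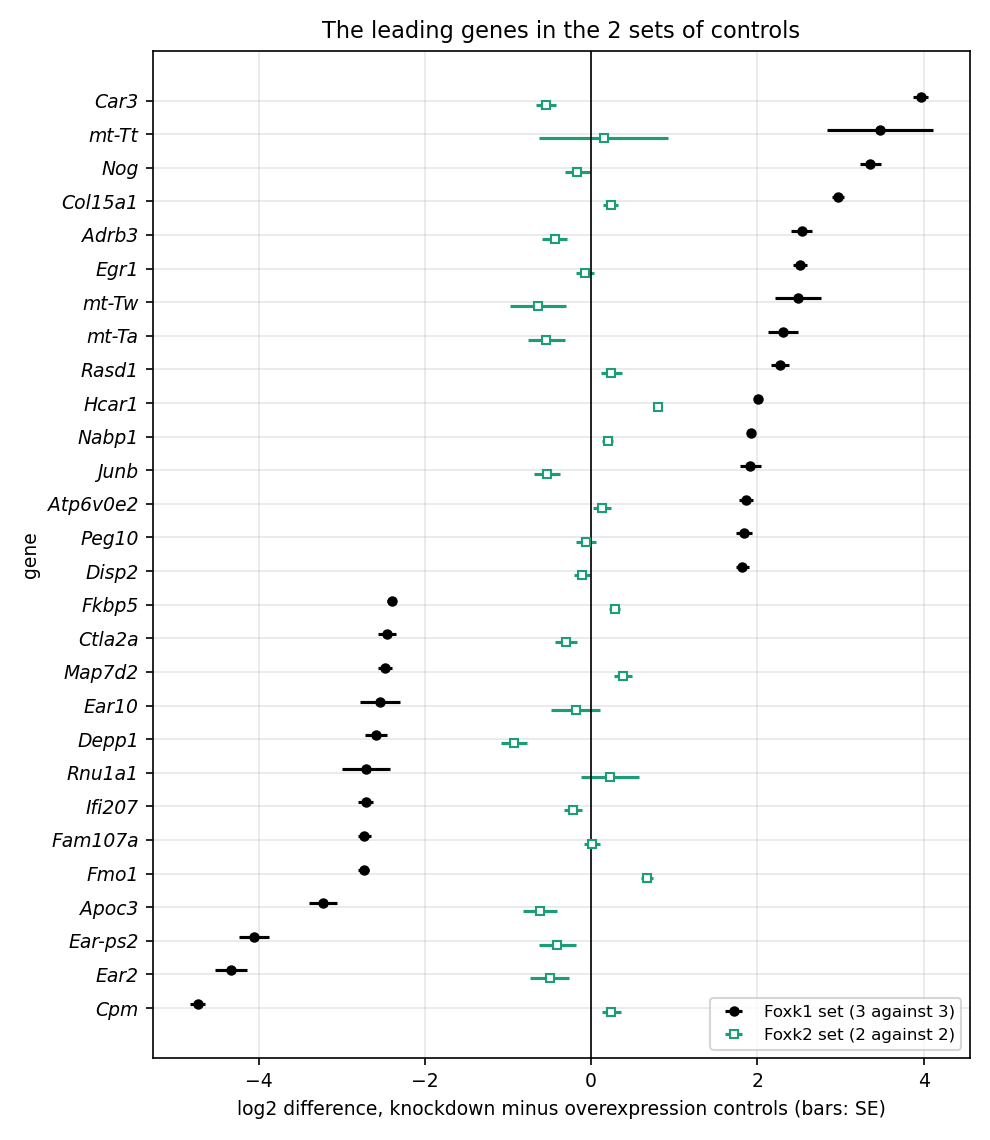
Log2 difference, knockdown minus overexpression controls, with its SE for 28 of the 30 genes that differed most in the Foxk1 set (filled circles) and the same genes in the Foxk2 set (open squares). The circles run from -4.73 for Cpm to 3.96 for Car3, while the squares stay between -0.93 for Depp1 and 0.80 for Hcar1.

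All of the 30 leading genes had a called difference between the sets. They were chosen on the Foxk1-set differences that enter this contrast, so that count is a description. In the Foxk2 set 20 of them were not called, 5 were called in the same direction (among them Hcar1, Nabp1, Apoc3 and Depp1) and 5 in the opposite one (Car3, Junb, Fmo1, Map7d2 and Fkbp5). Matrix lists ran the opposite way in the 2 sets: collagens were lower in 15 of 18 and higher in none in the Foxk2 set (8.05% of all genes were lower there), and 17 of 18 had a called difference between sets. Fibroblast markers were lower in 19 of 23 there. Cholesterol genes were higher in both sets, in 20 of 24 in the Foxk2 set, where 10.9% of all genes were. Respiratory chain genes were higher in 25 of 54 in the Foxk2 set and lower in none. Mitotic genes, higher in 23 of 25 in the Foxk1 set, were higher in none there and lower in 1.

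Levels in all 10 control libraries were set side by side for the leading genes. In 22 of the 30 the knockdown controls lay outside the range of every other control library and the overexpression controls did not. The reverse held in 2, mt-Tt and Rnu1a1, and both groups lay outside in 6. Among the 424 genes called at 2-fold the corresponding numbers were 274, 66 and 59, with neither outside in 25. Cpm averaged 0.527 RPKM in the Foxk1 knockdown controls, 26.8 in the Foxk1 overexpression controls, 38.1 in the Foxk2 knockdown controls and 32.3 in the Foxk2 overexpression controls. Nog averaged 5.64, 0.0952, 0.395 and 0.500 RPKM in the same order, and Adrb3 52.4, 8.69, 4.76 and 6.68. The genes were chosen for a difference between the Foxk1 groups, and the same count was not made over all genes. The other control libraries came from the Foxk2 experiments, which the leading principal component separated from the Foxk1 experiments. These counts are therefore a description.

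Each control group is also the baseline of a manipulation, so the effects of Foxk1 knockdown and of labelled Foxk1 overexpression share libraries with the comparison above and are set beside it without a test of likeness. Knockdown called 5734 genes against its controls (35.9%) and labelled overexpression 7643 (47.8%). Foxk1 averaged 3.25 RPKM in the knockdown libraries, a fall from 8.32. It averaged 6.10 in the libraries labelled overexpression, below the 7.55 of their controls, which goes against that label. Introduced and endogenous Foxk1 transcripts cannot be separated in these values, so whether the overexpression worked was not tested. Car3 averaged 127 RPKM after knockdown from a baseline of 54.3, and 0.321 RPKM after labelled overexpression from a baseline of 3.04.

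For several genes the gap between the 2 baselines was larger than the change made by either manipulation. These genes were picked for a large gap, which favours that order, so the values are a description. Cpm in the knockdown controls and Nog in the overexpression controls were near the floor, where the 0.5 added to RPKM limits a further fall. Cpm differed by -4.73 between the controls, by -0.29 on knockdown and by 0.71 on labelled overexpression. Fkbp5 differed by -2.40, 0.13 and 0.46, and Nog by 3.36, -0.15 and 0.44 in the same order. Of the fibroblast markers, 22 of 23 were higher on knockdown (20.4% of all genes) and 22 lower on labelled overexpression (23.8%). All 24 cholesterol genes tested were lower on knockdown (15.5% of all genes), and 17 were higher with 1 lower on labelled overexpression (24.1% of all genes were higher). Respiratory chain genes were lower in 33 of 54 on knockdown and higher in 47 on labelled overexpression.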

How the data were processed

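RNA was measured in 20 libraries of 3T3-L1 adipocytes in 8 groups; the 6 Foxk1 control libraries were compared. The deposited table holds RPKM for 48440 genes, which the authors made by alignment to mm10 with HISAT2 2.1.0, Picard 1.141 and featureCounts of Subread 1.5.1, with edgeR also named, per the submitters' processing notes. Strand handling is not given in the sources used here. For genes whose versioned ID matched GENCODE M21, the 14922 to 17420 values above 0 per library came out as whole reads within 0.1 read with its exon lengths. For 4691 other genes the length was taken from the values themselves. The first of these gave the depths, and intervals from them would cover counting error only.

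Genes with RPKM of at least 0.5 in at least 2 libraries were kept (15981). They were fitted on log2(RPKM + 0.5) with limma 3.58.1 in R 4.3.3, with 1 mean per group over all 20 libraries, 12 residual degrees of freedom and a trended prior, and Benjamini-Hochberg adjusted p under 0.05. Single library measures were compared by exact permutation. Scripts were tested on simulated data. Named genes are the 15 largest rises and 15 largest falls with RPKM of at least 2 in the higher group and no overlap, up to 4 called members per list, and small counts in full; some genes are not reported here. The comparison and 59 lists were chosen with earlier results of these data known, and 9 more lists, named as such where used, after values were seen. Alternatives covered filters, pseudocounts, scalings, length and GC, the libraries fitted, voom on recovered reads, a replicate block and each library left out. A filter at a mean of 20 reads was chosen after seeing the data.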

Additional observations from a re-analysis of the deposited data

Results flagged for a closer look

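For 5636 genes the difference between knockdown and overexpression controls itself differed between the Foxk1 and the Foxk2 experiments, by limma's contrast of the 2 differences. The values here are that contrast on the log2 scale, Foxk1 set minus Foxk2 set. The leading genes were chosen for a large difference in the Foxk1 set, which is part of this contrast. The further genes were chosen for calls in both sets, and those of opposite sign also for a called contrast.

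Among the genes higher in the Foxk1 knockdown controls it was 4.51 for Car3, 3.53 for Nog, 2.97 for Adrb3, 2.74 for Col15a1, 2.59 for Egr1 and 2.44 for Junb. It was 3.32 for mt-Tt, 3.13 for mt-Tw and 2.85 for mt-Ta, all mitochondrial tRNAs. Rasd1 stood at 2.03, Disp2 at 1.93, Peg10 at 1.91, Atp6v0e2 at 1.74, Nabp1 at 1.73 and Hcar1 at 1.21.

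Among the genes lower there it was -4.98 for Cpm, -3.41 for Fmo1, -2.94 for Rnu1a1, -2.87 for Map7d2, -2.74 for Fam107a and -2.68 for Fkbp5. The ribonuclease genes Ear2, Ear-ps2 and Ear10 gave -3.84, -3.65 and -2.36. Apoc3 stood at -2.61, Ifi207 at -2.50, Ctla2a at -2.16 and Depp1 at -1.66.

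Some further genes were called in both sets. Cidea (-3.70), Acsm3 (-2.94), Slc25a34 (-2.81) and Thrsp (-2.10) were lower in the Foxk1 and higher in the Foxk2 knockdown controls, and Sox4 (1.95) the reverse. Apoa4 stood at 2.69, with most of its exon bases shared with another gene. Ltc4s (0.51) and Hcar2 (0.68) were higher in both sets and more so in the Foxk1 set.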

How the results depend on the processing

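The 7154 calls became 6377 to 6703 when 1 control library was left out, 5619 in the fit of the 6 control libraries alone, 7001 with voom and 7015 with the filter at 20 reads, which was chosen after seeing the data. Same-numbered libraries did not deviate together, and the fit with a replicate block called 7092 genes. Counts at 2-fold moved most: 432 genes higher and 362 lower with a pseudocount of 0.1, 126 higher with a pseudocount of 1, and 507 higher and 405 lower with voom. Leaving out 1 library gave 197 to 241 genes 2-fold higher and 210 to 233 lower, and 5233 to 5560 genes with a called difference between the 2 control sets. Of 363 named genes that were called, 303 were called in every setting run. Of 136 counts over gene lists, 51 moved by over 1.5 times in at least 1 of the settings. The sign turned in 4 named genes, and the cause was not tested: Fabp4 was 0.014 (adjusted p = 0.929 by limma) and Retn 0.14 (adjusted p = 0.0302) under quantile normalization, Dnajb11 was -0.0039 (adjusted p = 0.95) under median-ratio scaling, and Cebpa was -0.18 (adjusted p = 0.00991) with the length and GC trend removed. Of these, Fabp4 and Dnajb11 were called on the deposited scale. Few reads limit genes such as mt-Tt, and 3 libraries a group limit every value.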

Other observations

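Signalling genes of connective tissue were higher in the Foxk1 knockdown controls in several lists not described above. Of 28 genes of TGFβ and BMP signalling, 17 were higher and 7 lower. Of 17 Wnt genes 9 were higher and 2 lower, but 5 were higher without the first knockdown control or in the fit of the 6 control libraries alone. Of 7 Notch genes 6 were higher and none lower. Lysosomal genes were higher in 16 of 29 and lower in 4, or in 8 under median-ratio scaling. Growth factors and their receptors were higher in 15 of 28 and lower in 5, which became 3 without the third library of either group. Chemokines were higher in 8 of 13 and lower in 1; 5 were higher in the fit of the 6 control libraries alone, and 2 were lower without the second knockdown control. Of all genes, 28.0% were higher.

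Of 29 ATF4 targets 14 were lower and 6 higher, and of 15 heat shock genes 8 were lower and 1 higher, beside 16.8% of all genes lower. Genes of branched-chain amino acid breakdown were higher in 6 of 20, near the 28.0% of all genes, and lower in 5, or in 9 under median-ratio scaling. Cytochrome P450 and retinoid genes were lower in 9 of 13 and higher in 2, and 1 was higher without the third knockdown control or the second or the third overexpression control.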
